A study of Mus musculus with 6 samples.

Results

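Aldo-keto reductases were described in liver tumors of FVB/N mice given GSK3326595, which inhibits PRMT5, an enzyme that methylates arginine, or given vehicle. The 10 genes were Akr1e1, Akr1a1, Akr1b3, Akr1b7, Akr1b8, Akr1b10, Akr1c6, Akr1c12, Akr1c13 and Akr7a5, found by their symbols among 47643 genes of the deposited table. The family was selected on the p-value of Akr1e1 in this contrast, rank 4 of 17012 tested genes, and its members were taken by name. The differences between the treatment groups are therefore given for these 10 genes as a description, with no test, and support nothing.

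Both groups carried LAP-tTA and tetO-MYC. In this system the LAP promoter drives the tTA activator in hepatocytes, tTA switches on the MYC transgene, and doxycycline keeps it off. Doxycycline was given in the water at 100 mg/L up to 4 weeks of age and then withdrawn, MYC was on for 8 weeks, and dosing followed for 2 weeks. The 3 GSK3326595 libraries came from mice given 50 mg/kg/day and the 3 vehicle libraries from mice given vehicle alone. The labels give the tissue as liver tumor, while the extraction text speaks of mouse liver. They number the replicates without saying that each is a separate animal, so whether spread between libraries is spread between animals is not known. Between libraries of a group, counts differed by a chi-square of 39.5 to 273 per degree of freedom, far more than counting noise.

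Aldo-keto reductases are mostly monomeric cytosolic enzymes that use NADPH to reduce aldehydes and ketones to alcohols. Their substrates include sugars, steroids, bile acid precursors and the reactive aldehydes formed when lipids are oxidized. The liver is a main site of this chemistry, and the human gene AKR1B10 is known as a marker of liver tumors.

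The libraries held 25814339 to 32427490 expected counts with GSK3326595 and 31480006 to 33621083 with vehicle. GSK3326595 replicate 2 stood apart on the first principal component (38.1% of the variance), at 103, against -50.2 to 9.37 for the other 5 libraries. Among these, vehicle replicate 3 (-7.52) lay near GSK3326595 replicates 1 and 3 (-5.33 and 9.37), away from vehicle replicates 1 and 2 (-50.2 and -49.5). Prmt5 had a log2 difference of 0.44 ± 0.37 (SE) and Myc of -0.83 ± 0.52. Neither was called by edgeR's quasi-likelihood test (adjusted p = 0.753 and 0.665). Myc here is the row of the mouse gene, at 51 to 262 expected counts, and whether reads of the MYC transgene fall in it is not known. The 10 hepatocyte markers, led by Alb, were present in every library and summed to 7105 to 26010 CPM (reads scaled to library size, with TMM factors) with GSK3326595 and 12357 to 32932 CPM with vehicle. Of the 10, 6 had a log2 difference above 0 (53.1% of all tested genes) and 4 below. At an unadjusted p under 0.05 edgeR counted 0 of them. Alb ran from 3157 to 11944 CPM over the libraries, while Tat ran from 1.48 to 312 CPM and Cyp2e1 from 4.05 to 1910 CPM. Hnf4a, a transcription factor of hepatocytes, differed by -0.14 ± 0.17 on the log2 scale (edgeR adjusted p = 0.848). In bulk tissue, fewer cells of a type and less RNA per cell cannot be told apart.

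Akr1b7 was at its lowest in all GSK3326595 libraries and Akr1e1 at its highest, while the other Akr1b genes, at the locus of Akr1b7, had log2 differences (GSK3326595 minus vehicle) of 0.35 to 0.60. Akr1c6 varied widely within each group. The remaining 7 genes had log2 differences from 0.01 to 0.60.

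By count, 9 of the 10 genes had a log2 difference above 0, where 53.1% of all tested genes did, and the median was 0.34 against 0.03 over all tested genes. The count was 6 without GSK3326595 replicate 2, and 7 by limma-voom, with a replicate block or without vehicle replicate 3. Of the 10, 2 did not overlap between the groups with higher values in GSK3326595 (6.72% of all tested genes) and 1 did not overlap with lower values (7.66%). edgeR called 0 of the 10 at an adjusted p under 0.05, where it called 0% of all genes in either direction. At an unadjusted p under 0.05 it counted Akr1e1 (higher; 5.45% of all genes) and Akr1b7 (lower; 3.81%). DESeq2 at an adjusted p under 0.05 called the same pair, Akr1e1 higher (1.09% of all genes) and Akr1b7 lower (0.588%), and limma-voom called no gene of the table. The contrast was known when the genes were chosen, so nothing is read from these counts.

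**Figure D1:**
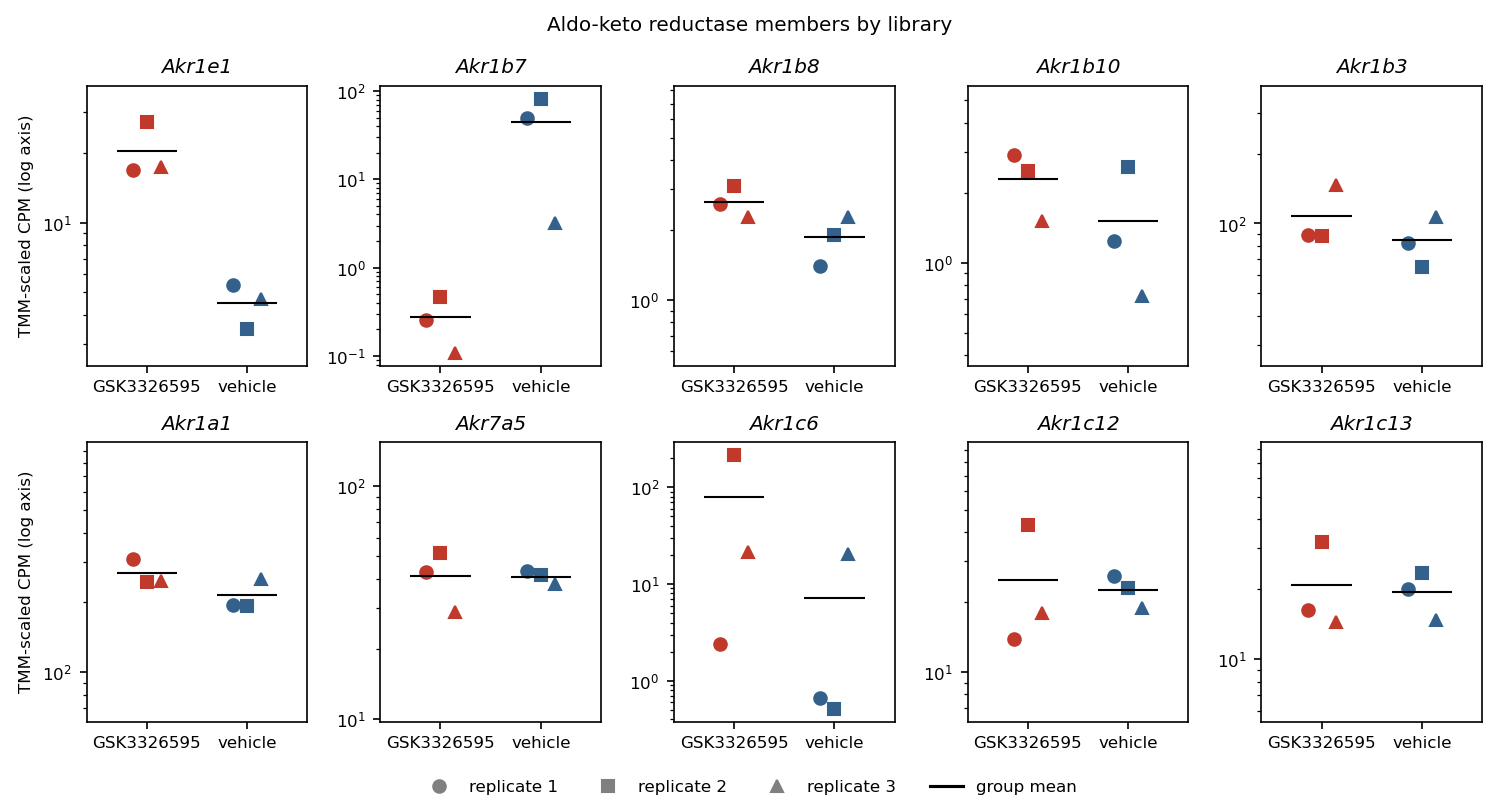
TMM-scaled CPM (log axes of differing range) of the 10 genes in each GSK3326595 (red, left) and vehicle (blue, right) library, with group means as lines. Akr1e1 lies at 16.8 to 27.0 CPM with GSK3326595, above the vehicle libraries, and Akr1b7 lies below 0.47 CPM with GSK3326595, below all vehicle libraries.

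Akr1b7, first described as a protein of the mouse vas deferens, is a reductase of lipid-derived aldehydes and of the aldehyde released when steroid hormones are made. It is encoded at chromosome 6, 34412334 to 34423142, plus strand (mm10; ENSMUSG00000052131.7). It had 0.258, 0.465 and 0.108 CPM in GSK3326595 replicates 1, 2 and 3, against 49.1, 81.8 and 3.22 CPM in vehicle replicates 1, 2 and 3. Every GSK3326595 library lay below every vehicle library, and vehicle replicate 3 lay far below the other vehicle libraries. In reads, these were 8, 15 and 3 expected counts with GSK3326595, against 1542, 2404 and 108 with vehicle, so the treated values rest on few reads. The fitted log2 difference was -7.29 ± 1.31 (SE), the lowest of all 17012 tested genes. It was between -7.84 and -6.53 when each library was left out in turn. Akr1b7 passed the filter on low counts through its vehicle libraries alone, and a gene kept in this way had to differ.

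The genes beside Akr1b7 did not share this pattern. The 4 Akr1b genes lie within 121 kb on chromosome 6, in the order Akr1b3, Akr1b8, Akr1b10 and Akr1b7, and Akr1b7 begins 15.4 kb beyond Akr1b10. Akr1b10 (34384218 to 34396950, plus strand), whose coding sequence is the closest to Akr1b7 among the 17 aldo-keto reductase genes compared, at 89.2% identity, had 2.90, 2.48 and 1.52 CPM with GSK3326595, against 1.24, 2.59 and 0.716 CPM with vehicle. Its groups overlapped, with a log2 difference of 0.60 ± 0.53 (SE). Leaving out vehicle replicate 3 gave 0.29 and leaving out vehicle replicate 2 gave 1.23. Akr1b8 (34354119 to 34368463, plus strand), known as a gene induced by fibroblast growth factor, had 2.58, 3.10 and 2.27 CPM with GSK3326595, against 1.40, 1.90 and 2.27 CPM with vehicle. Its groups were apart only by the third decimal, and the log2 difference was 0.51 ± 0.31 (SE), or 0.34 to 0.71 with each library left out.

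Akr1b3 (34302434 to 34317478, minus strand) is aldose reductase, which turns glucose into sorbitol in the polyol pathway. It had 89.0, 88.6 and 147 CPM with GSK3326595, against 82.2, 65.0 and 107 CPM with vehicle. The groups overlapped (log2 difference 0.35 ± 0.28, SE), and replicate 3 was the highest library of each group. The difference was 0.09 without GSK3326595 replicate 3, while leaving out vehicle replicate 2 gave 0.19 and leaving out vehicle replicate 3 gave 0.60. Beyond Akr1b7 on the other side, the nearest tested gene, Bpgm, had a mean of 23.3 CPM with GSK3326595 and 22.9 CPM with vehicle (log2 difference 0.02 ± 0.19, SE), and Cald1 next to it differed by 0.05 ± 0.20. Of the 50-base words in Akr1b7 transcripts, 2.52% occur in a transcript of any other gene, 1.14% in Akr1b10. The share with any other gene was 1.18% for Akr1b10, 2.90% for Akr1b8 and 9.48% for Akr1b3, whose shared words lie in Gm6644, Gm6736 and Gm12138, so that its reads could be split with those genes.

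Akr1e1 is the reductase of 1,5-anhydro-D-fructose, a sugar formed when glycogen is broken down by a lyase. It lies at chromosome 13, 4590750 to 4609174, minus strand (ENSMUSG00000045410.17), at the end of the Akr1c cluster and 4.21 kb from Akr1c21. It had 16.8, 27.0 and 17.4 CPM in GSK3326595 replicates 1, 2 and 3, against 5.38, 3.47 and 4.68 CPM in vehicle replicates 1, 2 and 3. All GSK3326595 libraries lay above all vehicle libraries, with means of 20.4 ± 5.73 and 4.51 ± 0.969 CPM (SD, n = 3 each). The log2 difference was 2.18 ± 0.30 (SE) and lay between 1.97 and 2.32 when each library was left out. No 50-base word of its transcripts occurs in another gene's transcripts, so its reads are not shared with a close copy. Its coding sequence was 63.6% identical to Akr1b3 and 54.2% to 57.2% identical to the 8 Akr1c genes of its cluster.

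Marker sums of 4 lists of other cell types did not overlap between the groups, and those of 4 further lists did. Of all tested genes, 53.1% had a log2 difference above 0. Over the same genes edgeR counted 5.45% higher at an unadjusted p under 0.05, and DESeq2 called 1.09% higher. The 9 T and NK cell markers summed to 24.8, 30.1 and 14.4 CPM with GSK3326595, against 6.24, 7.14 and 4.39 CPM with vehicle, and 7 of 7 tested had log2 differences above 0 (7 at an unadjusted p under 0.05 by edgeR, 0 adjusted, 6 called higher by DESeq2). The 7 dendritic cell markers, which include chains of MHC class II, summed to 866, 328 and 202 CPM, against 20.5, 39.7 and 53.9 CPM, with the same counts of 7, 7, 0 and 6. Cd74, H2-Aa and H2-Ab1, the MHC class II genes of that list, carried most of these sums. Cd74 alone had 574, 200 and 125 CPM with GSK3326595, where Xcr1 had 0.433 to 0.899 CPM and Flt3 0.505 to 2.20 CPM. The 8 stellate and fibroblast markers summed to 586, 680 and 786 CPM with GSK3326595, against 133, 257 and 529 CPM with vehicle, and 7 of 8 had values above 0 (2 at an unadjusted p under 0.05 by edgeR, 0 called by either tool). The 6 B cell markers summed to 3.75 to 14.9 CPM with GSK3326595, against 2.35 to 3.73 CPM with vehicle, and 4 of 4 tested had values above 0 (2 at an unadjusted p under 0.05 by edgeR, 0 adjusted, 1 called higher by DESeq2). The sums overlapped for macrophage markers (533 to 1276 CPM with GSK3326595, against 405 to 644 CPM with vehicle) and for endothelial markers (99.2 to 194 CPM, against 79.2 to 139 CPM). They also overlapped for biliary and progenitor markers (122 to 448 CPM with GSK3326595, against 263 to 361 CPM with vehicle) and for neutrophil markers (2.34 to 7.78 CPM, against 1.85 to 156 CPM). In these 4 lists 0 genes were counted at an unadjusted p under 0.05 by edgeR, and 0 were called by DESeq2. None of the markers of these 8 lists was at 0 in all libraries. Their part in the Akr1e1 and Akr1b7 values was not tested.

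The 250 bases before the RefSeq start site of Akr1e1, Akr1b7 and its neighbour Akr1b10 are shown because the first pair had the most separate groups and the last did not follow Akr1b7 (RefSeq, GRCm38.p6; 5′ to 3′ on the strand of the gene; capitals mark CCAAT on the strand shown).
Akr1e1: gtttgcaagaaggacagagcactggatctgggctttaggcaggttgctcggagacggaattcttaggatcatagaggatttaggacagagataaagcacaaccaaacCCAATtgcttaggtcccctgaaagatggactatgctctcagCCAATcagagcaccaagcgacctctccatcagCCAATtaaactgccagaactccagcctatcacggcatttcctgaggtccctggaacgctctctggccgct
Akr1b7: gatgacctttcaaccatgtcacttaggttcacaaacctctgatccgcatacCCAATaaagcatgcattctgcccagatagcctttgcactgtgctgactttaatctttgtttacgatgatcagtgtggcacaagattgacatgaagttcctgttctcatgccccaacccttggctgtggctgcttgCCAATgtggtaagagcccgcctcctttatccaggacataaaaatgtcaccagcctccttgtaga
Akr1b10: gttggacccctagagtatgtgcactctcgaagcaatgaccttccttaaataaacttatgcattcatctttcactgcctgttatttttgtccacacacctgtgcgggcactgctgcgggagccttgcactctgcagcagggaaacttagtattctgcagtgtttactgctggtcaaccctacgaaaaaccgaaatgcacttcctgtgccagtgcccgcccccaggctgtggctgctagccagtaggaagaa
These are chr13:4609165-4609414 (minus strand), chr6:34412112-34412361 (plus strand) and chr6:34383997-34384246 (plus strand). Akr1e1 holds CCAAT at positions -143, -102 and -70 and Akr1b7 at -199 and -64, counted from the start site to the motif's first base. Akr1b10 holds none.

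Promoters of 9 of the 10 genes were matched, all but Akr1b3, and were searched on both strands. CCAAT, a motif added after the sequences had been seen, occurred in 3 of the 9 (Akr1e1, Akr1b7 and Akr1c6), and in 34.5% of 27025 promoters of the same length. TGACNNNGC, the core of the antioxidant response element bound by NRF2, occurred in 0 of 9 (10.1% of all), and the E-box CACGTG, which MYC and MAX can bind, also in 0 of 9 (6.05% of all). TATAAA occurred in 2 of 9, Akr1b8 and Akr1c6 (13% of all). No match says only that these letters are not in this window.

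Akr1c6 makes active sex steroids as a 17beta-hydroxysteroid dehydrogenase (chromosome 13, 4434306 to 4457877, plus strand). It had 2.42, 215 and 21.6 CPM in GSK3326595 replicates 1, 2 and 3, against 0.669, 0.510 and 20.4 CPM in vehicle replicates 1, 2 and 3. The groups overlapped: GSK3326595 replicate 2 was the highest library, and vehicle replicate 3 lay above GSK3326595 replicate 1. Its log2 difference of 3.46 ± 1.93 (SE) was 0.81 without GSK3326595 replicate 2 and 7.09 without vehicle replicate 3. The genes with the most similar profile, chosen after their values were seen, were Mug1, Slco1a1, Slc22a30, Cyp2e1 and Ugt3a2. Measured by the root-mean-square difference in gene-centred log2 CPM over the 6 libraries, they lay 0.29 to 0.50 from Akr1c6, against a median of 3.05 over 16988 other genes. Cyp2e1, an ethanol-oxidizing cytochrome of mature hepatocytes, had 8.80, 1910 and 125 CPM with GSK3326595, against 5.96, 4.05 and 212 CPM with vehicle.

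The 12 male-biased liver genes summed to 192, 1108 and 149 CPM with GSK3326595, against 182, 183 and 235 CPM with vehicle, so that replicate 2 of GSK3326595 was high in this list too. Of these 12 genes 9 were tested, 7 with a log2 difference above 0 (53.1% of all tested genes). edgeR called 0 and counted 3 higher at an unadjusted p under 0.05 (5.45% of all tested genes), and DESeq2 called 1 higher (1.09%). Slco1a1 belongs to that list and is also among the 5 genes nearest to Akr1c6. In the same list Cyp4a12b was highest in GSK3326595 replicate 1 and Selenbp2 in vehicle replicate 2. Of the hepatocyte markers, Tat, Cyp2e1, Asgr1, Serpina1c and Arg1 were also highest in GSK3326595 replicate 2, while Alb, Ttr, Apoa1, Cps1 and Fgb were not. The 10 female-biased liver genes summed to 53.3, 93.4 and 20.2 CPM with GSK3326595, against 92.5, 89.2 and 39.2 CPM with vehicle. Replicate 2 was thus the highest GSK3326595 library in both sums. In the female-biased sum, Sult2a1 alone had 61.9 CPM there, against 0.032 and 0 CPM in GSK3326595 replicates 1 and 3. Hao2, Cux2 and Cyp2b13 were lower in replicate 2 than in replicate 1, and the rest of that list was not. Of the 7 female-biased genes tested, 4 had a log2 difference above 0. At an unadjusted p under 0.05 edgeR counted 0 higher and 1 lower (5.45% and 3.81% of all tested genes). The part of GSK3326595 replicate 2 and of the sex-biased genes in the Akr1c6 values was not tested.

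Akr1c12 (4268176 to 4279433, minus strand) and Akr1c13 (4191150 to 4205596, plus strand), both on chromosome 13, are close copies, with 96.2% identical coding bases and 92.5% identity over the 250 bases before the start. Their reads were split by the estimation of counts, since 28.6% of the 50-base words of Akr1c12 and 24.2% of those of Akr1c13 are shared between them, and the value of each alone is uncertain. Akr1c12 had 13.9, 42.9 and 17.9 CPM with GSK3326595, against 25.9, 23.0 and 18.9 CPM with vehicle. Akr1c13 had 16.2, 31.8 and 14.5 CPM with GSK3326595, against 20.04, 23.5 and 14.8 CPM with vehicle. In both, replicate 2 was the highest GSK3326595 library and the groups overlapped, with log2 differences of 0.14 ± 0.43 and 0.10 ± 0.36 (SE). Both differences were below 0 without GSK3326595 replicate 2 (-0.46 and -0.30), and that of Akr1c12 was also below 0 by limma-voom (-0.02) and with a replicate block (-0.03), as was that of Akr1c13 without vehicle replicate 3 (-0.03).

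Akr1a1 and Akr7a5 lie singly on chromosome 4. Akr1a1 (116636510 to 116651680, minus strand) is aldehyde reductase, which turns glucuronate into gulonate on the route to ascorbate. It had 309, 246 and 248 CPM with GSK3326595, against 196, 194 and 253 CPM with vehicle; vehicle replicate 3 lay above GSK3326595 replicates 2 and 3, and the log2 difference was 0.32 ± 0.19 (SE), or 0.20 without GSK3326595 replicate 1 and 0.49 without vehicle replicate 3. Akr7a5 (139310744 to 139318426, plus strand) reduces aflatoxin aldehyde and succinic semialdehyde. It had 42.8, 51.9 and 28.9 CPM with GSK3326595, against 43.1, 41.7 and 37.9 CPM with vehicle. The vehicle libraries lay inside the range of the GSK3326595 libraries, and the log2 difference was 0.01 ± 0.24 (SE). It was below 0 in 5 alternatives, down to -0.15 without GSK3326595 replicate 2.

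**Figure D2:**
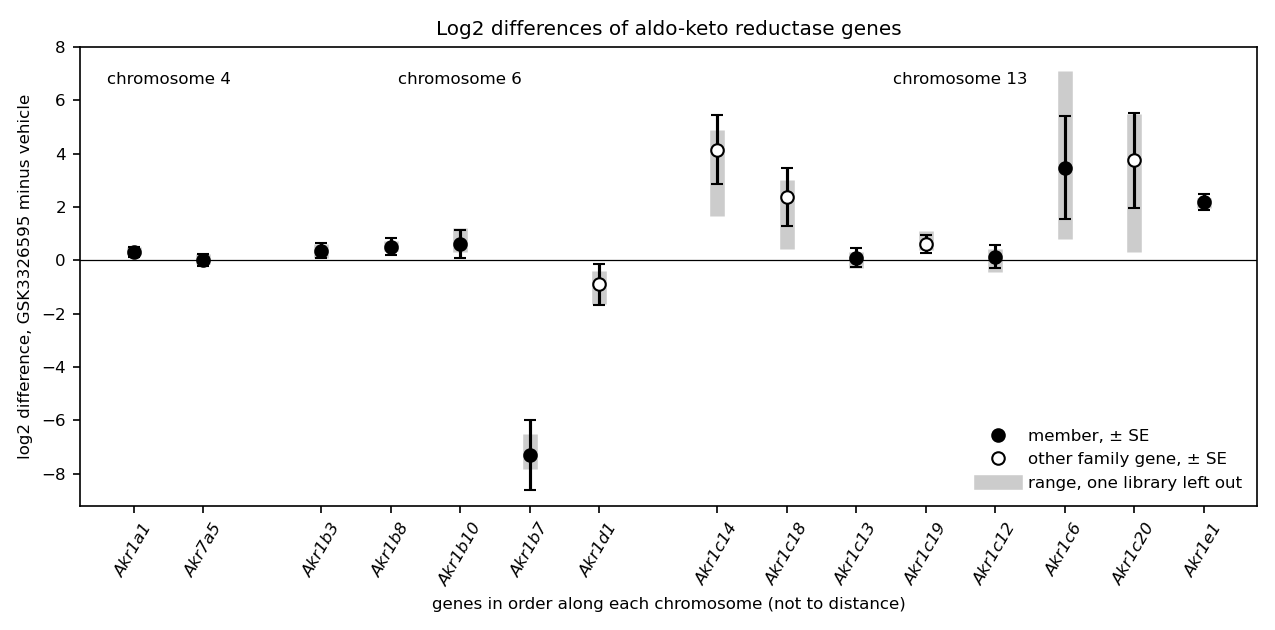
Log2 differences (GSK3326595 minus vehicle; y axis) of the 15 tested aldo-keto reductase genes in their order on chromosomes 4, 6 and 13, with SE as bars and the range over fits that each leave out 1 library in grey. Akr1b7 stands at -7.29 beside Akr1b10 at 0.60, and the ranges of Akr1c6, Akr1c20, Akr1c14 and Akr1c18 are wide while that of Akr1e1, hidden by its point, is 1.97 to 2.32.

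Of 7 further aldo-keto reductase genes, 5 passed the filter on low counts, and edgeR and DESeq2 each called 0 of them. At an unadjusted p under 0.05 edgeR counted 1 higher and 0 lower, against 5.45% and 3.81% of all tested genes. Akr1c14, a 3alpha-hydroxysteroid dehydrogenase, had 16.1, 248 and 16.3 CPM with GSK3326595, against 4.52, 1.87 and 9.34 CPM with vehicle. Its groups did not overlap, and the log2 difference was 4.15 ± 1.30 (SE; edgeR adjusted p = 0.504), or 1.68 without GSK3326595 replicate 2. DESeq2 gave Akr1c14 no adjusted p. Akr1c20, whose coding sequence is 92.3% identical to Akr1c6, had 0.548, 44.2 and 2.24 CPM with GSK3326595, against 0.605, 0.102 and 2.77 CPM with vehicle. Vehicle replicates 1 and 3 lay above GSK3326595 replicate 1, and vehicle replicate 3 also above GSK3326595 replicate 3. Its log2 difference was 3.74 ± 1.77 (SE; edgeR adjusted p = 0.569), or 0.31 without GSK3326595 replicate 2.

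Akr1c18, which inactivates progesterone as a 20alpha-hydroxysteroid dehydrogenase, had 12.8, 1.30 and 1.37 CPM with GSK3326595, against 1.02, 0.272 and 1.67 CPM with vehicle. Only GSK3326595 replicate 1 was high, and its log2 difference of 2.38 ± 1.09 (SE; edgeR adjusted p = 0.556) was 0.43 without that library. Akr1c19 had 37.0, 46.0 and 35.1 CPM with GSK3326595, against 20.4, 17.5 and 39.1 CPM with vehicle (log2 difference 0.62 ± 0.33, SE; edgeR adjusted p = 0.621), and the log2 difference was 1.09 without vehicle replicate 3, the high vehicle library. Akr1d1, the 5beta-reductase of bile acid synthesis, had 109, 211 and 25.3 CPM with GSK3326595, against 276, 282 and 88.2 CPM with vehicle. Replicate 3 was the lowest library of each group in Akr1d1 (log2 difference -0.91 ± 0.76, SE; edgeR adjusted p = 0.757; -0.41 without GSK3326595 replicate 3 and -1.65 without GSK3326595 replicate 2). The summed hepatocyte markers were lowest in the same libraries, at 7105 CPM in GSK3326595 replicate 3 and 12357 CPM in vehicle replicate 3. Not every marker of that list followed the sum. With GSK3326595, Tat, Asgr1 and Cyp2e1 were lowest in replicate 1 (1.48, 3.84 and 8.80 CPM) and the rest in replicate 3. With vehicle, Tat was lowest in replicate 1, Cyp2e1 in replicate 2 and the rest in replicate 3. The part of hepatocyte content in the Akr1d1 values was not tested. Akr1c21 had 3, 3 and 0 counts with GSK3326595 and 0, 0 and 1 counts with vehicle, and Akr1cl was at 0 in all 6 libraries; neither could be compared.

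**Figure D3:**
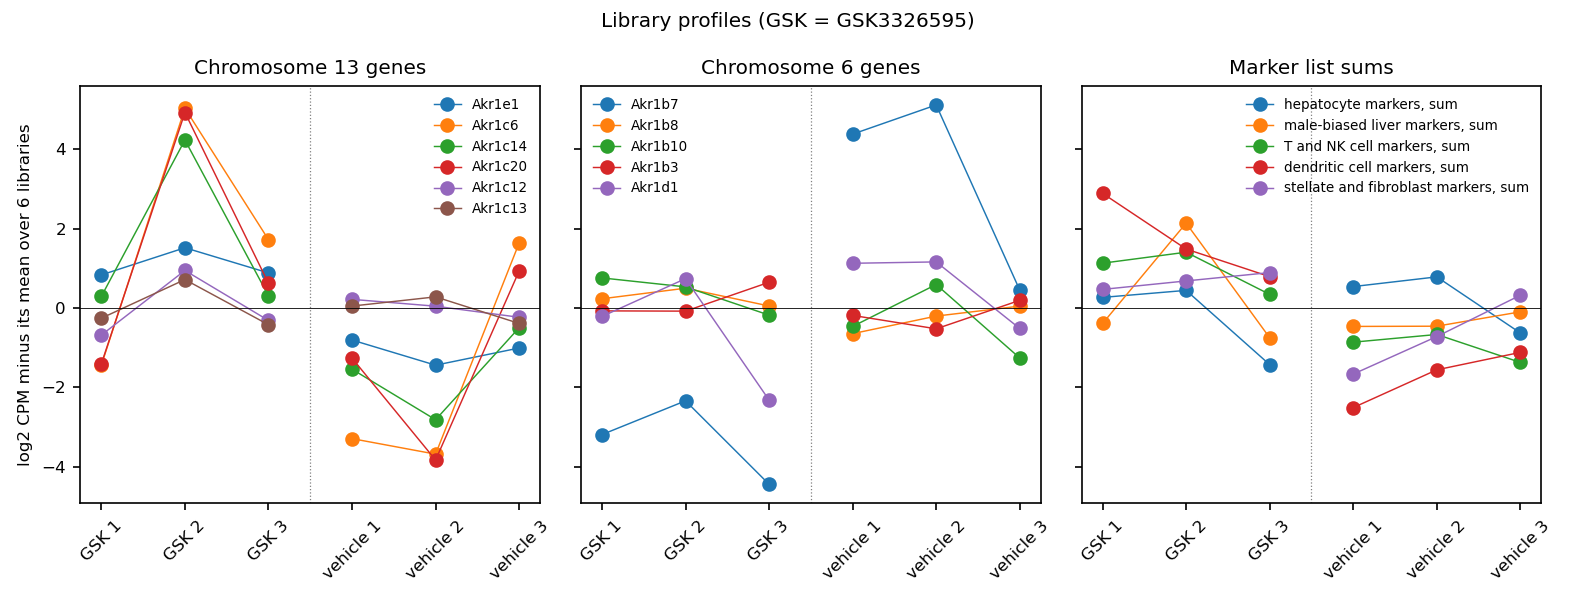
Log2 CPM of chromosome 13 genes, chromosome 6 genes and summed marker lists in each library, minus the mean of each over the 6 libraries; thin lines join the libraries of a group and replicates have no order. Akr1c6, Akr1c14 and Akr1c20 peak in GSK3326595 replicate 2, as does the sum of the male-biased liver genes (1108 CPM), and Akr1b7 is high in vehicle replicates 1 and 2.

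Levels were compared between genes per length, as TPM (reads per length of merged exons, scaled to the library's total). With GSK3326595, Akr1a1 had the highest mean at 196 ± 27.4 TPM (SD, n = 3), but its range overlapped that of Akr1c6, which came next at 75.3 ± 109 TPM through replicate 2 (12.6 TPM without it, below Akr1b3). Akr7a5 (45.8 ± 10.4 TPM), Akr1c12 (39.0 ± 22.5 TPM), Akr1c13 (28.8 ± 11.6 TPM) and Akr1b3 (26.3 ± 9.78 TPM) followed, each overlapping the next. Below Akr1b3 the treated ranges were apart, in the order Akr1e1 (11.2 ± 2.57 TPM), Akr1b8 (3.54 ± 0.349 TPM), Akr1b10 (1.30 ± 0.362 TPM) and Akr1b7 (0.425 ± 0.255 TPM).

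With vehicle, Akr1a1 was again the highest, at 145 ± 33.4 TPM (SD, n = 3), and was apart from Akr1b7 at 61.8 ± 53.7 TPM. Akr1b7 overlapped Akr7a5 (42.0 ± 1.24 TPM), which was apart from Akr1c12 (32.8 ± 3.58 TPM), itself apart from Akr1c13 (24.8 ± 4.10 TPM). Akr1b3 (18.9 ± 6.01 TPM) overlapped both of its neighbours, Akr1c13 above and Akr1c6 below (7.003 ± 11.2 TPM). Akr1c6, Akr1b8 (2.30 ± 0.670 TPM) and Akr1e1 (2.29 ± 0.545 TPM) overlapped in turn, and Akr1e1 was apart from Akr1b10 (0.771 ± 0.454 TPM). Akr1b7 thus ranked 10 of 10 by mean level with GSK3326595 and 2 of 10 with vehicle, and Akr1e1 ranked 7 with GSK3326595 and 9 with vehicle. Without vehicle replicate 2, Akr1b7 averaged 36.9 TPM with vehicle, below Akr7a5 at 42.6 TPM.

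**Figure D4:**
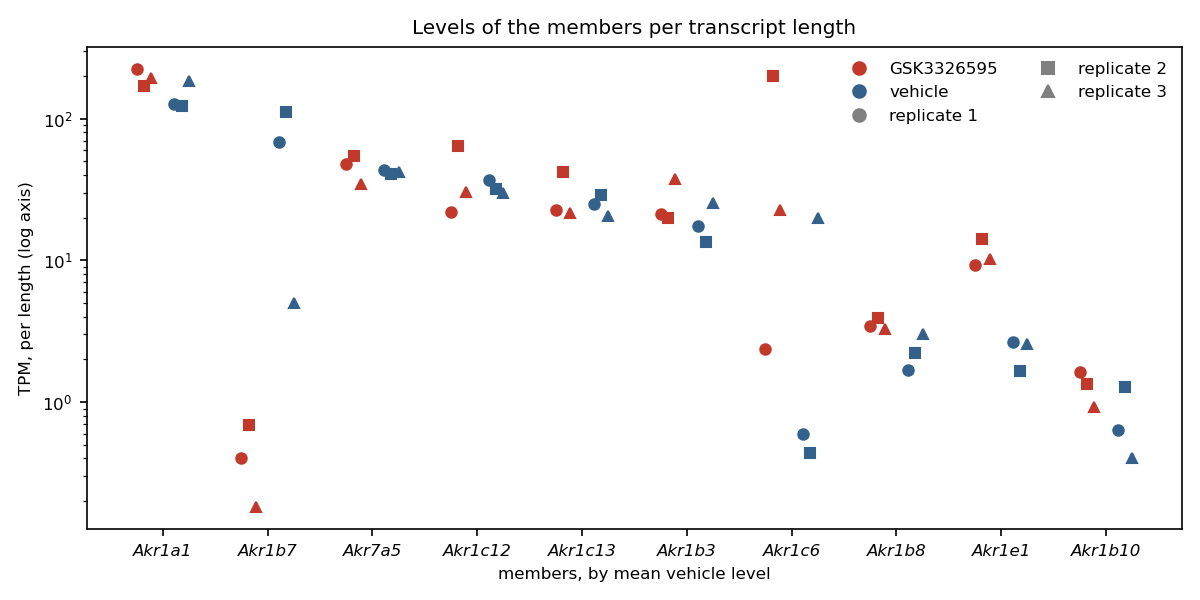
TPM (log axis) of the 10 genes in each GSK3326595 (red, left of each pair) and vehicle (blue, right) library, ordered by mean vehicle level. Akr1a1 is high in all libraries (123 to 225 TPM), and Akr1b7 runs from 0.181 to 0.690 TPM with GSK3326595 against 5.01 to 112 TPM with vehicle.

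The 10 genes summed to 355, 573 and 355 TPM with GSK3326595, against 325, 355 and 332 TPM with vehicle. GSK3326595 replicate 2, in which Akr1c6 alone had 201 TPM, stood above the other 5 libraries, at 325 to 355 TPM. Akr1a1 made up 63.2%, 29.7% and 54.5% of the sum with GSK3326595, against 39.4%, 34.7% and 55.2% with vehicle.

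The profile most like that of Akr1e1 over the 6 libraries belonged to Mlana, Gm38012, H2-Q5, Gpd2 and Slamf6, at root-mean-square differences of 0.27 to 0.34 on the log2 scale, against a median of 1.17 over 16988 other genes. Mlana (0.605 to 3.47 CPM), Gm38012 (0.918 to 4.22 CPM) and H2-Q5 (0.068 to 0.682 CPM) were low, so their profiles rest on few reads. Gpd2, the mitochondrial glycerol-3-phosphate dehydrogenase, had 23.5, 59.2 and 29.9 CPM with GSK3326595, against 7.71, 7.25 and 12.3 CPM with vehicle. Slamf6, a receptor of lymphocytes, had 2.26, 2.45 and 1.80 CPM with GSK3326595, against 0.382, 0.238 and 0.656 CPM with vehicle. With each group centred on its own mean, which takes the treatment difference out, the nearest genes were Gm13712, Idh1, Rnft2, 1810024B03Rik and Scand1 (0.05 to 0.09, median 0.43). The nearest family member by that measure was Akr7a5, at 0.26. The profiles nearest to Akr1b7, chosen after their values were seen, were those of Cacna1b, Comp, Mchr1, 3930402G23Rik and Dhrs9, at 1.15 to 1.38 (median 3.50 over other genes). Dhrs9, a retinol and steroid dehydrogenase, had 4.55, 6.14 and 1.05 CPM with GSK3326595, against 77.4, 90.6 and 11.1 CPM with vehicle.

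Other genes of carbonyl metabolism were followed through 7 lists, which hold 94 different tested genes, the 5 further family genes included; edgeR called 0 of the 94. At an unadjusted p under 0.05 it counted 6 higher and 4 lower, near the shares over all tested genes (5.45% and 3.81%). DESeq2 called 3 higher and 2 lower (1.09% and 0.588% of all tested genes), and limma-voom called 0. Among 24 NRF2 target genes, the antioxidant set that includes aldo-keto reductases in several species, 21 had a log2 difference above 0, as did 53.1% of all tested genes. The median was 0.26, against 0.03 over all genes, with 2 higher and 1 lower at an unadjusted p under 0.05 and 1 called in each direction by DESeq2. Their sum was highest in GSK3326595 replicate 2, at 2296 CPM, against 1547 and 1670 CPM in replicates 1 and 3 and 1428 to 1629 CPM with vehicle. Me1, malic enzyme, which makes NADPH, had 26.3, 115 and 15.2 CPM with GSK3326595, against 4.08, 4.93 and 3.58 CPM with vehicle (log2 difference 3.63 ± 0.79, SE; edgeR adjusted p = 0.455; 2.34 without GSK3326595 replicate 2). Osgin1, a growth inhibitor induced by oxidative stress, had 17.1, 16.4 and 8.87 CPM with GSK3326595, against 65.2, 70.3 and 28.8 CPM with vehicle (-1.95 ± 0.42, SE; edgeR adjusted p = 0.455). Nfe2l2, which encodes NRF2 itself, differed by 0.25 ± 0.15 and its inhibitor Keap1 by -0.29 ± 0.19 (edgeR adjusted p = 0.650 and 0.685). Of the 11 regulators in that list 4 had values above 0 and 7 below, with 0 higher and 1 lower at an unadjusted p under 0.05; the lower one was Mafg, a small MAF partner of NRF2 (-0.89 ± 0.32, SE; edgeR adjusted p = 0.522).

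Of 18 tested steroid and bile acid enzymes, 11 had a log2 difference above 0 (median 0.27), as did 53.1% of all tested genes. At an unadjusted p under 0.05 edgeR counted 3 higher and 2 lower (5.45% and 3.81% of all tested genes). DESeq2 called 2 higher and 1 lower (1.09% and 0.588%). Cyp7a1, the rate-limiting enzyme of bile acid synthesis, had 35.3, 151 and 21.3 CPM with GSK3326595, against 4.40, 2.93 and 13.5 CPM with vehicle (3.32 ± 0.93, SE; edgeR adjusted p = 0.485; 2.07 without GSK3326595 replicate 2). Hsd3b1, a dehydrogenase of steroid hormone synthesis, had 6.64, 3.78 and 4.98 CPM with GSK3326595, against 42.4, 42.9 and 11.8 CPM with vehicle (-2.66 ± 0.53, SE; edgeR adjusted p = 0.455). As in Akr1b7, vehicle replicate 3 was the lowest vehicle library in Hsd3b1 and still lay above the GSK3326595 libraries.

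The other lists had 0 genes counted at an unadjusted p under 0.05 by edgeR and 0 called by DESeq2. Of 23 carbonyl and alcohol dehydrogenases 16 had values above 0 (median 0.17), as did 53.1% of all tested genes. The gene of smallest p was Adh5, which oxidizes the glutathione adduct of formaldehyde, with 173, 249.4 and 147 CPM with GSK3326595, against 341, 335 and 220 CPM with vehicle (-0.65 ± 0.28, SE; edgeR adjusted p = 0.542). Aldh1a1, a retinaldehyde dehydrogenase, had 6.74, 912 and 58.2 CPM with GSK3326595, against 22.0, 18.5 and 48.5 CPM with vehicle, high in GSK3326595 replicate 2 like Akr1c6 (3.46 ± 1.56, SE; edgeR adjusted p = 0.555; 0.20 without that library). Of 10 genes of the polyol, glucuronate and ascorbate pathways 6 had values above 0 (median 0.30). Sord, which acts after Akr1b3 by oxidizing sorbitol to fructose, had 210, 333 and 204 CPM with GSK3326595, against 177, 137 and 257 CPM with vehicle (0.39 ± 0.31, SE; edgeR adjusted p = 0.742). Leaving out GSK3326595 replicate 2 gave 0.17 for Sord, and leaving out vehicle replicates 2 or 3 in turn gave 0.19 or 0.70. Rgn, which acts after Akr1a1 on the route to ascorbate, differed by 1.599 ± 0.69 (edgeR adjusted p = 0.549), or 0.59 without GSK3326595 replicate 2. Of 8 genes of methylglyoxal and lipid aldehyde clearance 6 had values above 0 (median 0.27). The 2 of smallest p were below 0: Gsta4, a glutathione transferase of lipid aldehydes, differed by -1.60 ± 0.97 and Ptgr2, a prostaglandin reductase, by -0.43 ± 0.26 (edgeR adjusted p = 0.658 and 0.661). Glo1, glyoxalase 1, differed by 0.50 ± 0.36 (edgeR adjusted p = 0.715), or 0.0082 without GSK3326595 replicate 2.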

How the data were processed

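Stranded sequencing libraries came from total RNA, per the labels' protocols. The authors deposited expected counts, the reads estimated for each gene, unscaled for depth. Per the submitters' processing notes the build was mm10 and the tools were RSEM, STAR, cutadapt and Picard, whose versions, like the gene annotation, are not given here. Of the 47643 genes, 47224 matched GENCODE M21 (same build), which gave coordinates (1-based) and lengths.

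Counts were rounded. Genes were kept with filterByExpr (minimum count 10; 17012 genes), scaled by TMM and tested with edgeR 4.0.16 (quasi-likelihood, two-sided, Benjamini-Hochberg over all genes, threshold 0.05; R 4.3.3). The SE is the absolute log2 difference over the square root of F. DESeq2 1.42.0 and limma-voom (limma 3.58.1) used the same genes. Log2 CPM used a prior count of 2. TPM is count per kilobase of merged exons scaled to a fixed total. Words of 50 bases and coding sequences came from GENCODE M21, and identities from global alignment (biopython 1.88).

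Members and lists were chosen with earlier results of these data known. Named were all members, the other family genes, Prmt5, Myc and Hnf4a, up to 4 genes of smallest p per list, and the 5 profiles nearest to Akr1e1 by each centring. Genes named outside this rule were chosen after their values were seen: those nearest to Akr1c6 and Akr1b7, the flanking genes Bpgm and Cald1, and the marker genes. One gene of the steroid list had no row under its symbol. Alternatives were other scaling, filters, tools and lengths, leaving out libraries singly, and a replicate block.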

Additional observations from a re-analysis of the deposited data

How the results depend on the processing

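Across the 13 other settings, the log2 differences of the 10 genes moved by less than the spread between replicates in 129 of 130 values; the exception was Akr1c6 without vehicle replicate 3 (7.09). This is a lenient measure, since the spread is wide for variable genes. The 129 include Akr1c6 at 0.81 without GSK3326595 replicate 2, against 3.46 in the main fit. They also include changes to below 0 for Akr1c12, Akr1c13 and Akr7a5. edgeR's 0 higher and 0 lower genes stood under every setting but DESeq2 (186 and 100), as did the 0 and 0 of the 7 gene lists (3 and 2); the cause was not tested. At an unadjusted p under 0.05, the 927 higher genes were 1547 with no filter on low counts, where more genes were tested, and the 648 lower were 430 with no scaling beyond total counts. Without each library they ranged from 347 (without vehicle replicate 1) to 1629 (without GSK3326595 replicate 3) higher, and from 241 (without vehicle replicate 2) to 961 (without GSK3326595 replicate 1) lower. The 6 higher genes of the 7 gene lists were 15 with no filter, 12 by DESeq2, 2 by limma-voom and 4 to 17 without each library (4 without vehicle replicate 1, 17 without GSK3326595 replicate 1), and the 4 lower were 2 (without vehicle replicate 2) to 16 (without GSK3326595 replicate 2). Leaving out each library gave log2 differences of -0.15 to 5.01 for Aldh1a7, -0.026 to 2.76 for Rdh7, -0.20 to 1.67 for Khk and -0.31 to 1.02 for Hagh, below 0 without GSK3326595 replicate 2 alone. The 3 of 10 genes with groups apart were 3 to 6 without each library (6 without vehicle replicate 3), settings added after seeing the data. Of the 9 pairs of neighbours in the order of vehicle TPM, 4 were apart, 2 with the longest transcript as length and 3 to 8 without each library (8 without vehicle replicate 3). Akr1b3 had 37.9 and 27.3 TPM and Akr1b10 2.90 and 1.73 TPM (GSK3326595 and vehicle) with the longest transcript. Deviations of same-numbered libraries had r across genes of -0.07, 0.07 and 0.32, against -0.43 to 0.32 for libraries of different number. Both replicates 3 thus deviated together, but no more than GSK3326595 replicate 1 with vehicle replicate 2 (0.32). These values do not settle whether the numbers mark pairs, and the main fit does not take them as pairs. With a replicate block, the lower genes of the 7 gene lists at an unadjusted p under 0.05 came to 7. Over all tested genes, 638 were higher and 779 lower with that block at the same threshold. Few reads limit Akr1b7 in GSK3326595 libraries, and 3 libraries a group cannot give an exact permutation p under 0.1.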
